A study of Mus musculus with 12 samples.

Results

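The genes described here are 44 genes of the unfolded protein response and of protein folding in the endoplasmic reticulum (ER), chosen by name. They fall into 16 genes for chaperones and folding enzymes, 9 for ER-associated degradation, 7 for stress sensors and their transcription factors, and 12 for the translocon and the enzymes that process proteins as they enter the ER. Of these, 39 had at least 1 probe with their gene symbol (56 probes in all, out of 25697 on the array) and 36 were measured well enough to be tested, out of 6563 genes tested in all. Dnajb11, Sdf2l1, Ppib, Atf6 and Sec61g had no named probe. The single probes of Ppp1r15a, Ssr1 and Rpn1 were above background on 0, 2 and 1 of the 12 arrays, which left these 3 genes untested. Vimp was found under its current symbol, Selenos.

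RNA came from alveolar macrophages, which live in the air spaces of the lung and were recovered from mice by lavage. The 12 samples form 4 groups of 3, namely Lmp7 knockout cells treated with IL-4 (LMP7ko_M2), untreated Lmp7 knockout cells (LMP7ko_M0), wild-type control cells treated with IL-4 (WT_M2) and untreated wild-type control cells (WT_M0). All mice were C57Bl/6J, aged 8 to 12 weeks and housed free of specific pathogens. M2 cells were cultured with 20 ng/ml of IL-4 for at most 24 h, and M0 cells were left unpolarized. Lmp7 is another name for Psmb8, the inducible beta5i subunit of the immunoproteasome. The labels state neither the knockout allele nor whether animals were pooled or a replicate was a separate mouse, and the p-values therefore rest on a spread between samples that may be technical. The 3 arrays of a group are lettered a, b and c. No label says whether arrays of the same letter belong together, and the letters were not used as pairs.

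Proteins bound for secretion or for membranes enter the ER through the Sec61 translocon, where their signal peptides are removed and glycans are attached, and fold there with chaperones and disulphide isomerases. Proteins that fail to fold are returned to the cytosol and destroyed by the proteasome. Load on the ER lumen is sensed by Ern1 (IRE1alpha), Eif2ak3 (PERK) and Atf6, whose downstream factors Xbp1, Atf4 and cleaved Atf6 switch on chaperone, degradation and amino acid genes. The ER stress element (ERSE), a paired motif bound by NF-Y and Atf6, is the textbook control element of many ER chaperone genes.

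Levels are log2 of the normalized probe intensity. Psmb8 checked the labels. Its probe read 5.79, 5.62 and 5.72 in LMP7ko_M2 and 5.49, 5.36 and 5.67 in LMP7ko_M0, never above background, against 7.96, 7.78 and 7.75 in WT_M2 and 7.82, 7.53 and 8.04 in WT_M0. Psmb8 was thus at least 3.32-fold lower in knockout than in wild-type M2 cells and at least 3.43-fold lower in knockout than in wild-type M0 cells (limma, adjusted p = 3.10e-05 and 1.83e-05). The share of probes above background ran from 25.5% to 34.2% over the arrays, and the lowest shares were on array a of LMP7ko_M2, LMP7ko_M0 and WT_M0. Array a was also the lowest of its group in WT_M2, at 29.23%. Whether arrays of the same letter share a batch was not tested. Of the 14 alveolar macrophage markers with a probe, 12 were above background on at least 1 array of LMP7ko_M2, LMP7ko_M0 and WT_M2 and 13 in WT_M0. Of the 12 tested, 5 passed with IL-4 in each genotype, with differences in knockout and wild-type cells of 1.08 and 0.98 for Plet1, -0.96 and -1.09 for Marco, -0.58 and -0.54 for Fabp5 and -0.36 and -0.34 for Siglecf, and Krt79 at least 2.36-fold higher in knockout M2 than M0 cells and 2.33 log2 units higher in wild-type M2 than M0 cells (limma, adjusted p = 1.63e-05 to 0.0207). With IL-4, 1422 of all 6563 genes passed in knockout and 1053 in wild-type cells by limma. Marco and Fabp5, 2 of the 12, also passed between knockout and wild-type cells. Their differences were -1.14 and 0.55 in M2 and -1.27 and 0.60 in M0 (limma, adjusted p = 0.000354 to 0.0257). Between the genotypes, 134 of all 6563 genes passed in M2 and 45 in M0 cells. The part of these marker differences in the values of the 44 genes was not tested. In these bulk samples, a change in the share of a cell type and a change in RNA per cell cannot be told apart.

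The promoters are shown first, and exact ERSE copies were far more frequent in them than in promoters at large. Since the ERSE is the textbook control element of many ER chaperone genes, this contrast follows in part from the choice of genes. It is therefore a description and not a test. RefSeq (build GRCm38.p6) gave windows of 300 bases, from 250 before to 50 after each annotated start, for 37 of the 44 genes. Hyou1, Manf, Derl1, Atf6, Sec61a1, Ssr2 and Sec11c had none. The windows were searched on both strands for ERSE (CCAAT, then any 9 bases, then CCACG) and for ERSE-II (ATTGG, any base, CCACG), a shorter relative. An exact ERSE was present in 8 of the 37 genes (21.6%), against 39 of all 32851 promoter windows (0.119%). Of the chaperone and folding genes, 7 of 14 had one. Among the degradation genes Syvn1 had one, and no sensor or translocon gene did. ERSE-II was found in Herpud1 and Dnajb11, against 12 of all windows (0.0365%). These matches describe the sequence and not its occupancy. The lines below give each element of a measured gene with its flanking bases, read in the direction in which the motif was found, with the fixed parts of the element in capitals.
Hspa5: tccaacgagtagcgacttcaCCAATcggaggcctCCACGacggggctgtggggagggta
Hsp90b1, far copy: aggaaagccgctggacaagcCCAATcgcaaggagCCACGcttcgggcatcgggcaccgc
Hsp90b1, near copy: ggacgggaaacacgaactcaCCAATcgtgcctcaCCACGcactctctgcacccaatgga
Calr: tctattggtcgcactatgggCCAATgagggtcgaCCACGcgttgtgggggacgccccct
Canx: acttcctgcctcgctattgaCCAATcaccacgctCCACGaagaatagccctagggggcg
Pdia6: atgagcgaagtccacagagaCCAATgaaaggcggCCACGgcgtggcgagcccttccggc
Dnajc3: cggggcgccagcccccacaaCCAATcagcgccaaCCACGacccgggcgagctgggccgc
Creld2: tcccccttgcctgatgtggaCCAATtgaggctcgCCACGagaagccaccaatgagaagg
Syvn1: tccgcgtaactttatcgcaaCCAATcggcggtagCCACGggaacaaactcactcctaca
Herpud1 (ERSE-II): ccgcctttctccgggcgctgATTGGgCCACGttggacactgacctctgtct

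The Hspa5 stretch lies at chr2:34772005-34772063 on the plus strand, with its element 65 to 47 bases before the start. Hsp90b1 has a far copy 212 to 194 bases before its start (chr10:86705618-86705676, minus strand) and a near copy, in the opposite orientation, 107 to 89 bases before it (chr10:86705513-86705571, plus strand). The others are at chr8:84847055-84847113 (plus strand, Calr), chr11:50325780-50325838 (minus strand, Canx), chr12:17266471-17266529 (plus strand, Pdia6), chr14:118937807-118937865 (plus strand, Dnajc3), chr15:88819500-88819558 (minus strand, Creld2), chr19:6046512-6046570 (plus strand, Syvn1) and chr8:94386357-94386407 (plus strand, Herpud1). Every one of these stretches lies upstream of its gene's annotated start. The core of the UPRE, another Xbp1 and Atf6 motif (TGACGTGG), was in 0 of the 37 genes and in 0.676% of all windows. The amino acid response element that Atf4 can bind (TGATGNAAT) was also in 0 of the 37 and in 0.965% of all windows.

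**Figure D1:**
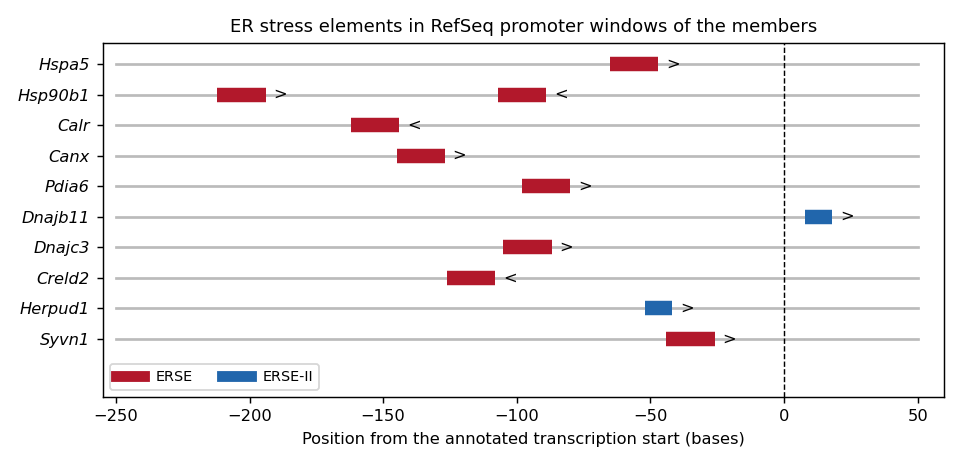
Position of each exact ERSE (red) and ERSE-II (blue) in the promoter windows of the 10 genes that hold one, in bases from the annotated start (dashed line). Arrowheads give the orientation, to the right where the motif reads along the gene, and all elements but that of Dnajb11 lie before the start.

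Most of the tested genes were higher after IL-4 in both genotypes. Of the 36 tested members, 22 passed with a positive and 1 with a negative difference in knockout cells (adjusted p under 0.05 over 6563 genes), where 10.3% of all genes rose and 11.4% fell. In wild-type cells 22 also passed with a positive and 1 with a negative difference, where 8.43% of all genes rose and 7.62% fell. Pdia6 and Ern1 passed the filter on low values through arrays of 1 treatment only, Pdia6 through 4 M2 arrays and Ern1 through 4 M0 arrays, so the filter itself favoured differences of their sign, and without them 21 rose in each genotype. The median log2 difference of the members was 0.59 in knockout and 0.58 in wild-type cells, against 0.00 over all genes in each, and 0.57 and 0.50 with the genes undetected in a whole group set at their bound (Pdia6 and Ern1). Of the members, 21 passed with a positive difference in both genotypes and Ern1 with a negative one, Pdia3 passed in knockout cells alone and Edem1 in wild-type cells alone, and 12 passed in neither. The responses of the members in the 2 genotypes had a Pearson correlation of 0.933 across the 36 genes, which share the same arrays within a genotype.

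**Figure D2:**
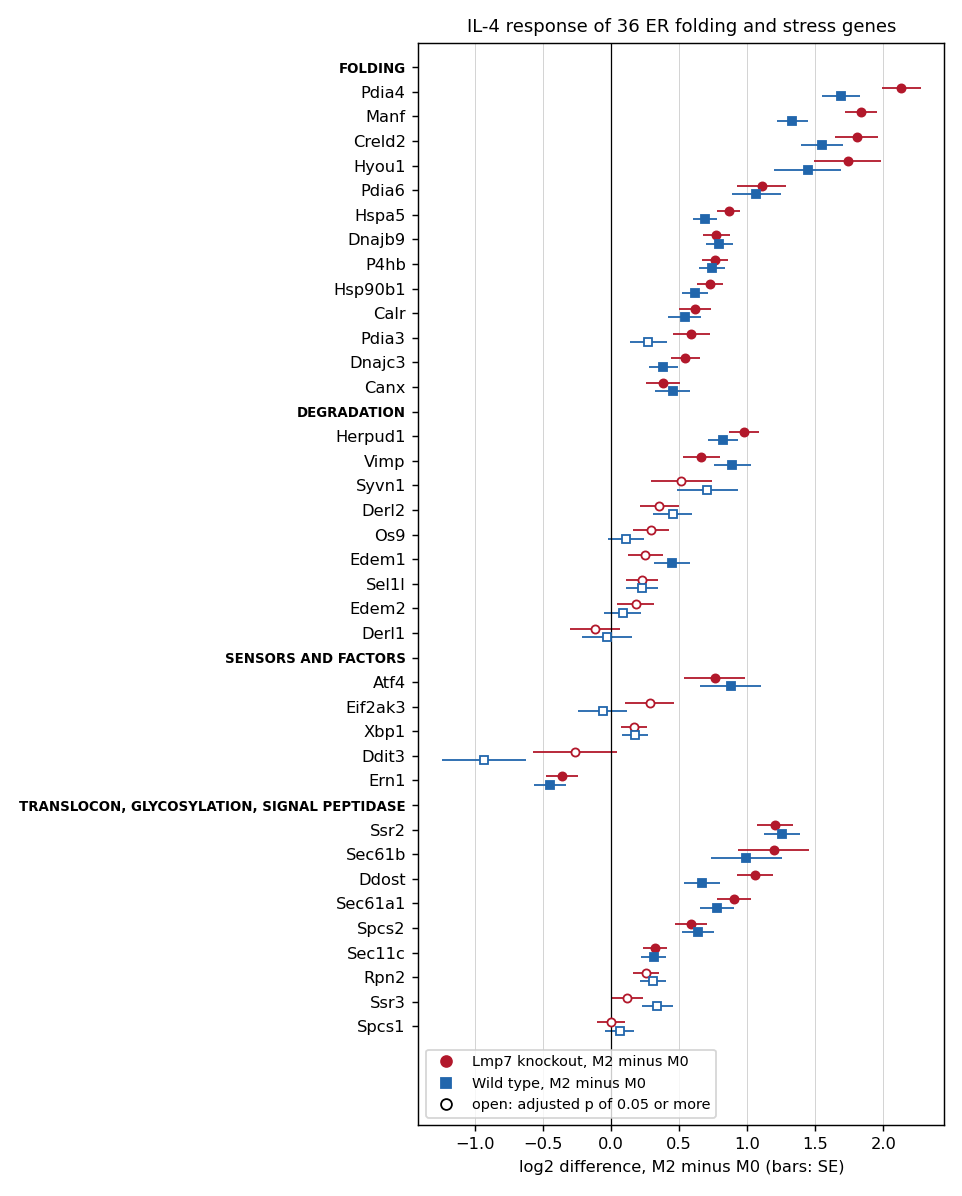
The log2 difference between M2 and M0 cells for each of the 36 tested genes by role, with its standard error (SE), in knockout (red circles, upper) and wild-type cells (blue squares, lower). All 13 folding genes lie right of 0 in both genotypes, while most degradation genes and sensors have open symbols, which mark an adjusted p of 0.05 or more.

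All 13 tested chaperones and folding enzymes rose in knockout cells and 12 rose in wild-type cells, where 10.3% and 8.43% of all genes rose. The medians were 0.77 and 0.74 (0.76 and 0.69 with Pdia6 at its bound). The mean level over these 13 genes was 9.60, 9.67 and 9.70 on the LMP7ko_M2 arrays, against 8.51, 8.66 and 8.60 on the LMP7ko_M0 arrays. It was 9.42, 9.59 and 9.53 on the WT_M2 arrays, against 8.51, 8.67 and 8.69 on the WT_M0 arrays. Every M2 array was above every M0 array.

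Pdia4 (ERp72), a disulphide isomerase, changed most. It read 8.90, 9.02 and 8.87 in LMP7ko_M2, against 6.54, 6.99 and 6.86 in LMP7ko_M0, and 8.63, 9.05 and 8.86 in WT_M2, against 7.07, 7.13 and 7.27 in WT_M0. All M2 arrays lay far above all M0 arrays. The log2 difference was 2.13 ± 0.142 (SE) in knockout cells, a 4.38-fold rise, and 1.69 ± 0.142 in wild-type cells, a 3.22-fold rise (limma, adjusted p = 2.33e-06 and 3.26e-05). Manf, a small ER-resident protein induced by ER stress, read 9.36, 9.54 and 9.36 in LMP7ko_M2, against 7.36, 7.74 and 7.65 in LMP7ko_M0, and 9.08, 9.10 and 9.18 in WT_M2, against 7.72, 7.79 and 7.86 in WT_M0. Its groups were equally well separated, by 1.83 ± 0.115 in knockout and 1.33 ± 0.115 in wild-type cells (limma, adjusted p = 1.55e-06 and 3.62e-05).

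Creld2, an ER protein of the same stress programme, read 8.92, 9.0 and 9.11 in LMP7ko_M2, against 7.0, 7.20 and 7.43 in LMP7ko_M0, and 8.71, 8.84 and 8.75 in WT_M2, against 6.89, 7.47 and 7.30 in WT_M0. It rose by 1.80 ± 0.155 in knockout and 1.55 ± 0.155 in wild-type cells (limma, adjusted p = 1.54e-05 and 7.99e-05), and its other probe gave 1.93 and 1.56. Hyou1 (GRP170), which exchanges the nucleotide of the chaperone BiP, read 7.96, 7.77 and 8.23 in LMP7ko_M2, against 5.96, 6.51 and 6.27 in LMP7ko_M0, and 7.5, 7.85 and 7.76 in WT_M2, against 5.65, 6.47 and 6.65 in WT_M0. Array a of each M0 group was not above background for Hyou1, so its differences of 1.74 ± 0.245 and 1.44 ± 0.245 include values near background (limma, adjusted p = 0.000463 and 0.00248).

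Differences under 1 log2 unit were found in other chaperone genes. Hspa5 (BiP), the central ER chaperone, rose by 0.86 ± 0.0871 in knockout and 0.69 ± 0.0871 in wild-type cells, and Hsp90b1 (GRP94) by 0.72 ± 0.0963 and 0.62 ± 0.0963. The BiP co-chaperone Dnajb9 rose by 0.77 and 0.80, the disulphide isomerase P4hb by 0.76 and 0.74, the calcium-binding lectin chaperone Calr by 0.62 and 0.54, and the co-chaperone Dnajc3 by 0.55 and 0.39. Canx, the membrane-bound lectin chaperone, had the smallest rise of the folding genes in knockout cells, 0.38 ± 0.125, and rose by 0.45 ± 0.125 in wild-type cells. Pdia3 (ERp57), the isomerase that works with both lectin chaperones, rose by 0.59 ± 0.136 in knockout cells and differed by 0.28 ± 0.136 in wild-type cells (limma, adjusted p = 0.00932 and 0.211). Its difference between the genotypes' responses was 0.32 ± 0.192 (adjusted p = 0.901). Without WT_M2 a the wild-type difference was 0.43 and passed (adjusted p = 0.0397, against up to 0.535 under the other alternatives).

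Pdia6, another isomerase, was dim. It was above background on 2 arrays of each M2 group and on none of either M0 group. It was thus at least 1.15-fold higher in knockout M2 than M0 cells and at least 1.09-fold higher in wild-type M2 than M0 cells. These bounds set the mean of the brighter group against the lowest level called above background on each array of the dimmer group. The call for Canx in knockout cells was lost without any single one of 10 arrays, all but LMP7ko_M2 a and WT_M0 a (log2 0.33 to 0.43, adjusted p = 0.0522 to 0.142), and in wild-type cells without WT_M2 b, WT_M2 c or WT_M0 a (0.33 to 0.42, adjusted p = 0.0995 to 0.107). The call for Dnajc3 in wild-type cells was lost without any of WT_M2 a, b or c or WT_M0 a or c (0.31 to 0.41, adjusted p = 0.0538 to 0.114).

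**Figure D3:**
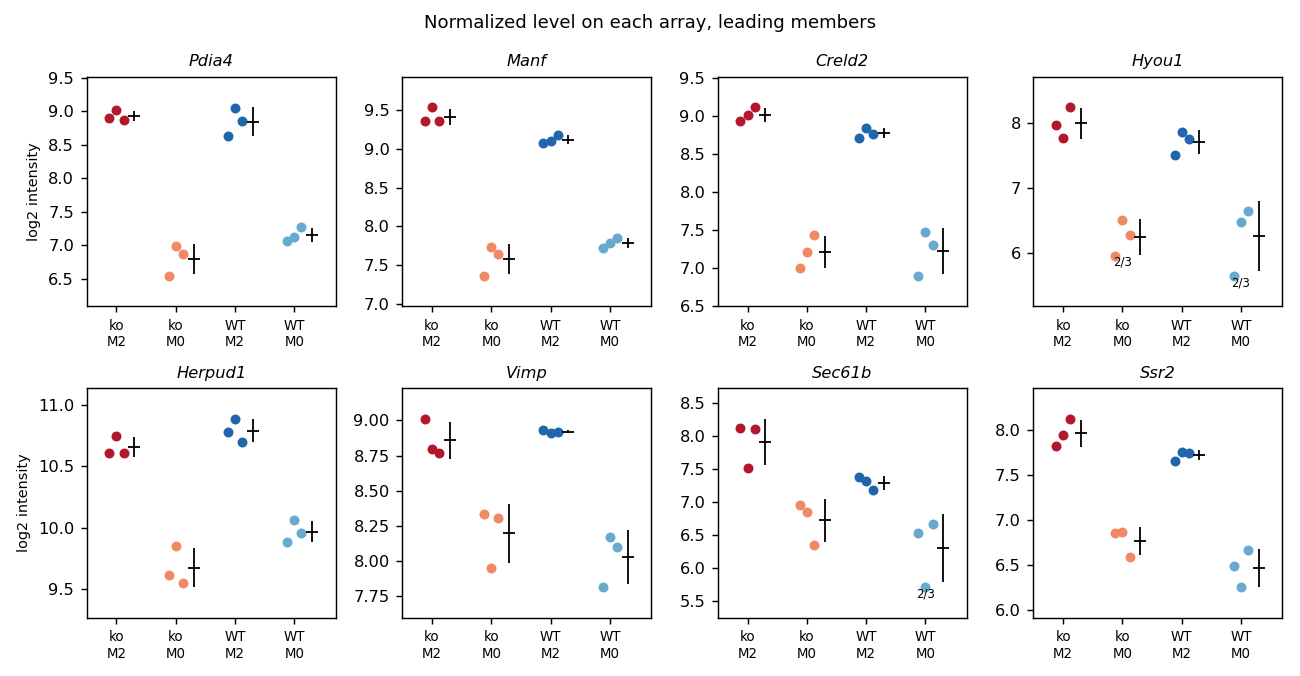
Normalized log2 intensity on each array for 8 leading genes, with the group mean and SD (black, n = 3) beside the points, in the order knockout M2, knockout M0, wild-type M2 and wild-type M0. A fraction such as 2/3 marks a group in which only that many arrays were above background, and in all 8 panels the M2 points lie above the M0 points of the same genotype. The genes were taken from those that passed without overlap, so this separation follows in part from the choice.

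All 7 tested folding genes with an ERSE rose in both genotypes, among them Pdia6, which passed the filter on low values through M2 arrays only. The folding genes with a promoter window but neither element, namely Pdia4, Dnajb9, P4hb and Pdia3, rose in knockout cells, and all but Pdia3 rose in wild-type cells. The median difference was 0.72 in knockout cells with the element and 0.77 without it, and 0.62 and 0.77 in wild-type cells. With Pdia6 at its bound, the medians with the element are lower in both genotypes. Over all genes, 11 of the 37 genes with an ERSE were tested, and the 7 that rose in each genotype were the folding genes printed above. Syvn1, the 8th member with an ERSE, differed by 0.52 ± 0.225 in knockout and 0.71 ± 0.225 in wild-type cells and did not pass (limma, adjusted p = 0.136 and 0.0554). It passed in knockout cells without WT_M0 c (adjusted p = 0.0375) and in wild-type cells without WT_M0 a (0.94, adjusted p = 0.0136).

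The Creld2 element is shared. Alg12, a mannosyltransferase of N-glycan assembly, is transcribed away from Creld2 on the other strand, with 328 bases between the annotated starts, and its window holds the same ERSE, 202 bases from the start of Alg12 and 108 from that of Creld2. Alg12 differed by 0.24 in knockout and -0.38 in wild-type cells and passed in neither, while Creld2 rose 3.49-fold and 2.93-fold.

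Of the 9 tested genes of ER-associated degradation, 2 rose in knockout cells (Herpud1 and Vimp) and 3 in wild-type cells (Herpud1, Vimp and Edem1), with medians of 0.29 and 0.45. Herpud1, a membrane scaffold of the degradation complex, read 10.60, 10.75 and 10.60 in LMP7ko_M2, against 9.61, 9.85 and 9.55 in LMP7ko_M0, and 10.78, 10.88 and 10.70 in WT_M2, against 9.88, 10.06 and 9.96 in WT_M0. Its groups did not overlap, with differences of 0.98 ± 0.11 and 0.82 ± 0.11 (limma, adjusted p = 0.000104 and 0.000605), and its dimmer probe gave 1.41 and 1.30. Vimp, a selenoprotein that helps recruit the p97 ATPase to the ER, read 9.01, 8.80 and 8.77 in LMP7ko_M2, against 8.33, 7.95 and 8.31 in LMP7ko_M0, and 8.94, 8.91 and 8.92 in WT_M2, against 7.81, 8.17 and 8.10 in WT_M0. It rose by 0.66 ± 0.135 in knockout and 0.89 ± 0.135 in wild-type cells (limma, adjusted p = 0.00477 and 0.00124), again without overlap.

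Edem1, which delivers misfolded glycoproteins to degradation, read 8.35, 8.48 and 8.41 in LMP7ko_M2, against 8.07, 8.30 and 8.12 in LMP7ko_M0, and 8.28, 8.61 and 8.47 in WT_M2, against 7.79, 8.20 and 8.02 in WT_M0. The knockout difference was 0.25 ± 0.13 and the wild-type difference 0.45 ± 0.13 (limma, adjusted p = 0.207 and 0.0372), and their own difference did not pass (-0.20 ± 0.183, adjusted p = 0.960). The wild-type call was lost without any of LMP7ko_M0 c, WT_M2 b, WT_M2 c, WT_M0 a or WT_M0 c (0.34 to 0.46, adjusted p = 0.0519 to 0.138). The degradation genes other than Herpud1, Vimp and Edem1 passed in neither genotype. Differences in knockout and wild-type cells were 0.23 and 0.23 for the brightest probe of the adaptor Sel1l, 0.36 and 0.45 for Derl2, -0.11 and -0.03 for Derl1, 0.29 and 0.11 for the lectin Os9, and 0.18 and 0.09 for Edem2. Edem2's 2 measured probes disagreed in sign in knockout cells (0.18 and -0.07). Sel1l's other probes gave 0.40 and 0.48 and 0.49 and 0.29, and with the mean of its 3 probes in place of the brightest it passed in knockout cells (0.37, limma, adjusted p = 0.0314, against up to 0.694 under the other alternatives). Derl2 passed in knockout cells without LMP7ko_M2 a (0.47, adjusted p = 0.0454) and in wild-type cells without LMP7ko_M2 a, LMP7ko_M2 c or WT_M0 b (0.45 to 0.55, adjusted p = 0.0365 to 0.0450).

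Of the 5 tested stress sensors and factors, Atf4 rose in both genotypes and Ern1, near background, passed with a negative difference, and the medians were 0.17 in knockout and -0.06 in wild-type cells (0.17 and -0.02 with Ern1 at its bound). Xbp1, the factor activated when Ern1 splices its RNA, read 9.21, 9.29 and 9.17 in LMP7ko_M2, against 9.05, 9.12 and 9.01 in LMP7ko_M0, and 9.03, 8.97 and 9.11 in WT_M2, against 8.75, 8.88 and 8.96 in WT_M0. The M2 arrays lay just above the M0 arrays of each genotype, by 0.17 ± 0.0956 in both, which did not pass (limma, adjusted p = 0.258 and 0.265). The array gives the amount of Xbp1 RNA, and its splicing was not measured.

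Ern1 itself was near background. Its probe read 5.35, 5.49 and 5.54 in LMP7ko_M2, against 5.74, 5.83 and 5.88 in LMP7ko_M0, and 5.70, 5.60 and 5.51 in WT_M2, against 6.27, 5.92 and 5.96 in WT_M0. It was above background on all 3 WT_M0 arrays, on 1 LMP7ko_M0 array and on no M2 array. The differences were -0.36 ± 0.117 in knockout and -0.45 ± 0.117 in wild-type cells (limma, adjusted p = 0.0491 and 0.0242), which as a bound is at least 1.02-fold lower in WT_M2 than in WT_M0 and gives no fold in knockout cells. The knockout call was lost without any one of 10 arrays, all but WT_M0 a and WT_M0 b (-0.40 to -0.31, adjusted p = 0.0578 to 0.148), and the wild-type call without WT_M2 b, WT_M2 c or WT_M0 a (-0.45 to -0.34, adjusted p = 0.0701 to 0.0897). With the replicate number as a block, on the authors' processed values, the knockout difference was -0.27 and no longer passed (limma, adjusted p = 0.0571). Of the 9 alternatives other than leaving out 1 array, this one included, 6 ended the knockout call and 5 the wild-type call (adjusted p up to 0.2595 and 0.235).

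Atf4, the factor translated when PERK or its relatives phosphorylate eIF2alpha, read 7.0, 7.03 and 7.5 in LMP7ko_M2, against 6.63, 6.52 and 6.09 in LMP7ko_M0, and 7.45, 7.26 and 7.37 in WT_M2, against 6.06, 6.44 and 6.93 in WT_M0. The M0 arrays were spread widely, but no M2 array fell among the M0 arrays of its genotype. Atf4 rose by 0.76 ± 0.222 in knockout and 0.88 ± 0.222 in wild-type cells (limma, adjusted p = 0.0308 and 0.0207). The call was lost in knockout cells without LMP7ko_M2 c, LMP7ko_M0 b or LMP7ko_M0 c (0.60 to 0.82, adjusted p = 0.0581 to 0.118), and in wild-type cells without WT_M2 a, WT_M2 c, WT_M0 a or WT_M0 b (0.67 to 0.87, adjusted p = 0.0582 to 0.0704). Eif2ak3 (PERK) read 8.27, 8.20 and 8.24 in LMP7ko_M2, against 7.60, 8.25 and 8.01 in LMP7ko_M0, and 8.06, 8.14 and 8.57 in WT_M2, against 8.36, 8.46 and 8.13 in WT_M0. Its groups overlapped in both genotypes, with differences of 0.29 ± 0.179 and -0.06 ± 0.179 (limma, adjusted p = 0.307 and 0.885).

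Ddit3 (CHOP), the factor linked to cell death under lasting stress, had the largest values in untreated wild-type cells. It read 6.14, 7.41 and 6.79 in LMP7ko_M2, against 6.63, 7.32 and 7.16 in LMP7ko_M0, and 6.84, 6.81 and 7.42 in WT_M2, against 7.82, 8.28 and 7.77 in WT_M0. All 3 WT_M0 arrays lay above every other array. The IL-4 difference was -0.26 ± 0.306 in knockout and -0.93 ± 0.306 in wild-type cells, and neither passed (limma, adjusted p = 0.618 and 0.0628). The wild-type difference passed under 7 of 21 alternatives (limma, adjusted p down to 0.00914). Among them were the fits without LMP7ko_M2 a or b (adjusted p = 0.02825 and 0.0325), with an offset of 50 and on the authors' processed values. Between the genotypes, knockout minus wild-type M0 cells differed by -0.92 ± 0.306 (adjusted p = 0.305), and the responses differed by 0.67 ± 0.433 (adjusted p = 0.929).

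**Figure D4:**
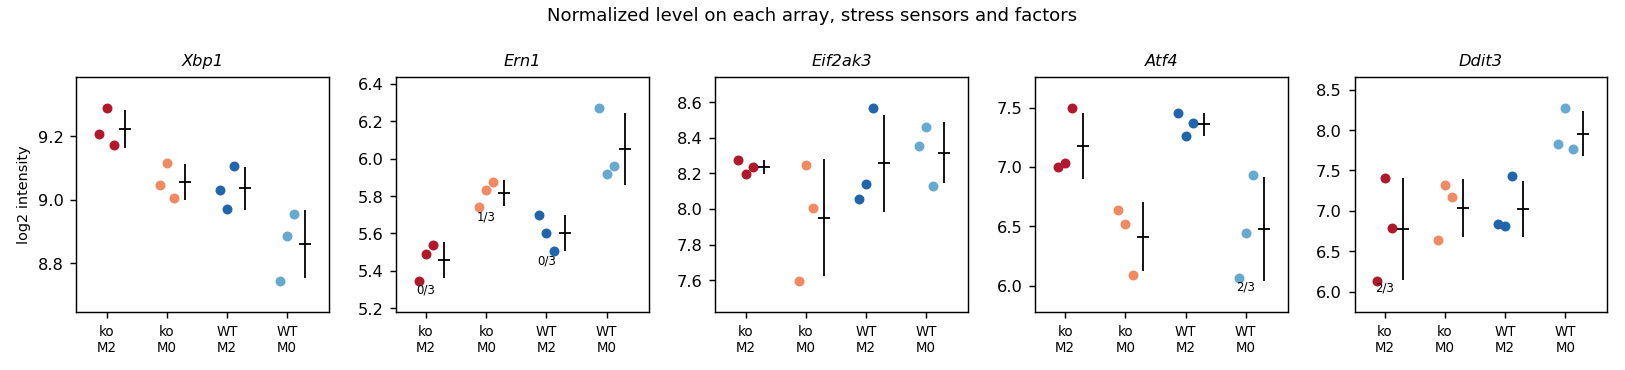
Normalized log2 intensity of the 5 tested sensors and factors on each array, with group mean and SD (n = 3), in the order knockout M2, knockout M0, wild-type M2 and wild-type M0, with fractions where fewer than 3 arrays were above background. Each panel has its own axis, and Ern1 is close to background throughout.

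Of the 9 tested translocon and processing genes, 6 rose in each genotype (66.67%), namely Sec61a1, Sec61b, Ssr2, Ddost, Spcs2 and Sec11c. Of all genes, 10.3% rose in knockout and 8.43% in wild-type cells. The medians of the 9 were 0.59 in knockout and 0.64 in wild-type cells. Ssr2, a subunit of the translocon-associated TRAP complex, read 7.83, 7.95 and 8.13 in LMP7ko_M2, against 6.85, 6.86 and 6.58 in LMP7ko_M0, and 7.66, 7.76 and 7.75 in WT_M2, against 6.49, 6.25 and 6.66 in WT_M0. It rose by 1.20 ± 0.133 and 1.26 ± 0.133 (limma, adjusted p = 9.29e-05 and 0.000126), with wide gaps between M2 and M0 arrays. Ddost, a subunit of the oligosaccharyltransferase that attaches N-glycans, read 8.84, 8.89 and 8.93 in LMP7ko_M2, against 7.88, 7.89 and 7.72 in LMP7ko_M0, and 8.53, 8.73 and 8.55 in WT_M2, against 8.15, 7.63 and 8.03 in WT_M0. It rose by 1.06 ± 0.133 in knockout and 0.67 ± 0.133 in wild-type cells (limma, adjusted p = 0.000232 and 0.00627).

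Sec61a1, which forms the translocon pore, read 8.33, 8.31 and 8.60 in LMP7ko_M2, against 7.38, 7.60 and 7.53 in LMP7ko_M0, and 7.99, 8.21 and 7.98 in WT_M2, against 7.19, 7.20 and 7.45 in WT_M0. It rose by 0.91 ± 0.125 and 0.78 ± 0.125 (limma, adjusted p = 0.000404 and 0.00181), without overlap. Its partner Sec61b, the translocon's beta subunit, read 8.12, 7.51 and 8.11 in LMP7ko_M2, against 6.95, 6.85 and 6.35 in LMP7ko_M0, and 7.38, 7.32 and 7.17 in WT_M2, against 6.53, 5.70 and 6.66 in WT_M0. It rose by 1.20 ± 0.26 in knockout and 0.99 ± 0.26 in wild-type cells (limma, adjusted p = 0.00703 and 0.0239), and its other probe gave 1.20 and 0.96. The lowest WT_M0 array was not above background, and the wild-type call was lost without WT_M2 a, b or c or WT_M0 b (0.70 to 1.05, adjusted p = 0.0527 to 0.0768).

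Of the 3 tested signal peptidase genes, 2 rose in both genotypes. Spcs2 rose by 0.59 in knockout and 0.64 in wild-type cells, the catalytic subunit Sec11c rose by 0.32 and 0.31, and Spcs1 differed by 0.00 and 0.06, and by 0.12 and 0.36 on its dimmer probe. Sec11c passed by a small margin, and its call was lost in knockout cells without LMP7ko_M2 b or c or LMP7ko_M0 b or c (0.30 to 0.32, adjusted p = 0.0652 to 0.0849) and in wild-type cells without any of 7 arrays, LMP7ko_M0 b or c, WT_M2 a, b or c and WT_M0 b or c (0.26 to 0.33, adjusted p = 0.0511 to 0.121). Ssr3 differed by 0.12 and 0.34 and Rpn2, another oligosaccharyltransferase subunit, by 0.26 and 0.31, and neither passed (limma, adjusted p = 0.524 and 0.0683 for Ssr3, 0.0824 and 0.0519 for Rpn2). Ssr3 passed in wild-type cells without LMP7ko_M2 a (adjusted p = 0.0478).

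The question of whether loss of the immunoproteasome subunit alters this programme was addressed by comparing genotypes within M0 and within M2 cells. No member passed in either comparison by limma. In M2 cells 134 of 6563 genes passed (2.04%) and in M0 cells 45 (0.686%). At an unadjusted p under 0.05 there were 4 of 36 members in M2 cells (Sec61a1, Manf, Sec61b and Canx) and 6 in M0 cells (Ddit3, Canx, Herpud1, Pdia4, Hspa5 and Ssr2). Of all 6563 genes, 793 in M2 and 648 in M0 cells were also under 0.05. The lowest adjusted p among the members was 0.231 in M2 and 0.305 in M0 cells. The 95% intervals of all members lay between -0.92 and 1.19 in M2 cells and between -1.59 and 0.99 in M0 cells, which bounds the sizes that the data allow for single genes.

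Knockout and wild-type arrays did not overlap in 11 of 36 members in M2 cells (30.6%, against 19.2% of all genes) and in 7 of 36 in M0 cells (19.4%, against 14.8% of all genes). In M2 cells 10 of the 11 were higher in knockout cells (Manf, Creld2, Canx, Dnajc3, Os9, Xbp1, Sec61a1, Sec61b, Ssr2 and Ddost) and Sec11c was lower. In M0 cells Canx and Xbp1 were higher and Hspa5, Pdia4, Herpud1, Ddit3 and Ern1 were lower. Among the 13 folding genes, the knockout minus wild-type difference was positive in 11 in M2 cells and in 4 in M0 cells, where it was positive for 3148 and 3285 of the 6563 genes. The M2 medians were 0.10 for folding genes, -0.03 for degradation genes, -0.15 for sensors and 0.06 for translocon genes, and the M0 medians were -0.01, 0.07, -0.23 and 0.06. Sec61a1 had the lowest adjusted p in M2 cells, with the knockout 0.36 ± 0.125 above wild type.

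**Figure D5:**
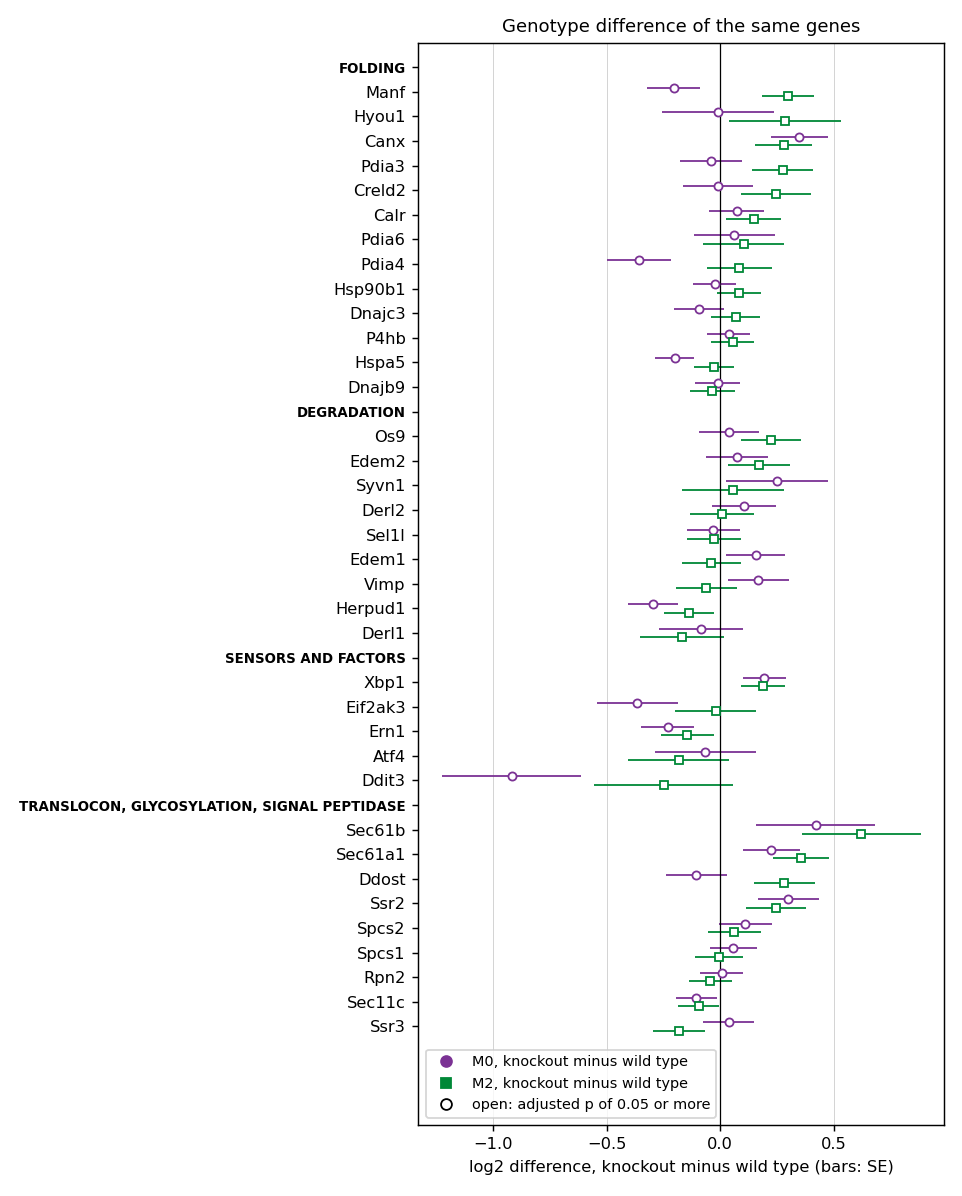
The log2 difference between knockout and wild-type cells for each of the 36 genes by role, with SE, in M0 (purple circles, upper) and M2 cells (green squares, lower). Every symbol is open, since no gene passed, and most folding genes lie right of 0 in M2 cells.

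The IL-4 response itself did not differ between the genotypes in any member at the threshold by limma, where 7 genes of 6563 did (0.107%). Manf and Pdia4, 2 of the 36 members, had an unadjusted p under 0.05, as did 436 of all 6563 genes. The knockout response exceeded the wild-type response by 0.50 ± 0.163 in Manf and by 0.44 ± 0.201 in Pdia4 (limma, adjusted p = 0.587 and 0.751). Both genes read higher in knockout than wild-type M2 cells, by 0.30 and 0.08, and lower in knockout than wild-type M0 cells, by differences of -0.21 and -0.36. Of the 21 members that rose in both genotypes, 15 had the larger difference in knockout cells (71.4%), against 270 of the 433 genes of the whole array that rose in both (62.4%). The difference of responses was above 0 in 11 of 13 folding genes (median 0.16) and 4 of 9 degradation genes (median -0.09, and -0.17 to 0.08 over the alternatives), where it was above 0 in 3105 of 6563 genes (median -0.02).

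Genes of the same pathways outside the 44 were counted from further lists. Other ER folding genes rose in 6 and fell in 2 of 21 in knockout cells and rose in 5 and fell in 1 in wild-type cells. Of all genes, 10.3% rose and 11.4% fell in knockout cells, and 8.43% rose and 7.62% fell in wild-type cells. Fkbp11, a prolyl isomerase of secretory cells, was above background on no M0 array and was at least 1.25-fold and 1.32-fold higher in M2 than M0 cells in knockout and wild-type cells, and Txndc11 at least 1.19-fold and 1.17-fold. Both passed the filter on low values through M2 arrays only, so the filter itself favoured a rise in them. Txndc5, a disulphide isomerase, rose by 0.80 and 1.14, and Fkbp2 by 0.68 and 0.63, while the thioredoxin-related membrane protein Tmx4 fell by 0.46 and 0.37 on the log2 scale. Other degradation genes passed in 1 of 13 in knockout cells (Aup1, -0.39) and in 0 of 13 in wild-type cells by limma, with 2 at an unadjusted p under 0.05. Of all 6563 genes, 1867 were under that p in wild-type cells.

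Other stress signalling genes rose in 2 of 12 in both genotypes, where 10.3% and 8.43% of all genes rose, with medians of -0.01 and 0.06. The 2 were Atf5, by 0.64 and 0.72, and Atf3, by 0.57 and 0.53. Other translocation and glycosylation genes rose in 11 and fell in 1 of 22 in knockout cells and rose in 10 in wild-type cells. Ostc, an oligosaccharyltransferase subunit, rose by 1.31 and 1.47, Magt1 by 0.93 and 0.77, Sec63, a translocon partner of BiP, by 0.77 and 0.52, and Srprb, of the signal recognition receptor, by 1.24 in wild-type cells. Of 20 genes of ER-to-Golgi transport, 6 rose in each genotype, among them the cargo receptor Lman1 (0.96 and 0.75), the retrieval receptor Kdelr2 (0.63 and 0.65), Tmed2 (0.61 and 0.43) and, in knockout cells, the coat subunit Sec24d (0.92).

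Markers of other cells were read because secretory cells are rich in ER. Of 8 B and plasma cell markers with a probe, Sdc1 was the only one above background on any array. Cd79a, Cd79b, Ms4a1, Jchain, Mzb1, Tnfrsf17 and Pou2af1 were not. Their summed level was 294.7 to 358 in LMP7ko_M2 and 294.3 to 312.9 in LMP7ko_M0, and 313.7 to 320.8 in WT_M2 and 288.5 to 310.8 in WT_M0, in intensity units. Of 9 epithelial markers, 2 were above background in each M2 group, Cdh1 and Sftpc, with 3 in LMP7ko_M0 and 5 in WT_M0. Their summed level was 2985 to 3533 in LMP7ko_M2 against 1359 to 1439 in LMP7ko_M0, and 3152 to 3379 in WT_M2 against 1528 to 1818 in WT_M0. Cdh1, an adhesion gene that macrophages can also express, rose by 1.48 and 1.27, and Sftpc, the surfactant gene of alveolar epithelium, differed by 0.14 and -0.03 (adjusted p = 0.783 and 0.960). Scgb1a1, the secretory gene of airway club cells, differed with IL-4 by -0.23 and -0.80 (limma, adjusted p = 0.633 and 0.0796) and by -0.78 between knockout and wild-type M0 cells (adjusted p = 0.364), none of which passed. Of 7 neutrophil markers, 2 were above background in LMP7ko_M2, LMP7ko_M0 and WT_M2 and 1 in WT_M0. Their summed level was 333.5 to 368.8 in LMP7ko_M2 against 504.8 to 593.6 in LMP7ko_M0, and 318.2 to 348.9 in WT_M2 against 412.2 to 439.9 in WT_M0. Of the 3 tested, 2 fell in each genotype, S100a8 by 1.42 and 1.03 on the log2 scale and another by 1.35 and 0.86. The third differed by 0.09 and 0.56 and did not pass. With genes undetected in a whole group at their bound, the median of the 3 was -0.23 in knockout and 0 in wild-type cells. Above background on any array of a group were 1 to 2 of 9 T and NK cell markers, 1 to 2 of 7 dendritic cell markers and 0 to 1 of 7 eosinophil, basophil and mast cell markers. The part of these cells in the IL-4 differences was not tested.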

How the data were processed

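Illumina BeadArrays measured transcript levels in 12 samples. Per the file headers, the authors' first deposited table gives for each probe and array an intensity, not normalized between arrays, and a detection p-value, and its intensities run from -72 to 12659. The negative values show that background was subtracted before deposit. A second deposited table holds the authors' processed intensities on a linear scale, used as an alternative. The software was not given in the sources used here. RNA was amplified with a whole-transcriptome kit, per the labels' protocols.

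Intensities were background-corrected (limma 3.58.1, R 4.3.3, normexp from detection p-values, offset 16), log2 transformed and quantile normalized. The 9200 probes kept had 3 or more of the 12 arrays with a detection p under 0.05. Of all probes, 23978 had 1 gene symbol, 0 several and 1719 none. A gene was represented by its brightest kept probe. All arrays entered 1 linear model with 4 group means (8 residual degrees of freedom), with Benjamini-Hochberg adjustment of limma's p-values over 6563 genes. The ± after a log2 difference is its SE. The number of arrays, 3 a group, limits the precision. In 10 simulations with 200 genes changed, the knockout IL-4 contrast found 71.8% of genes moved by 1 log2 unit and 25.5% at 0.5 (false calls 5.36%). The difference of responses found 49% and 6.12% (false calls 5.78%). In the data 1422 of 6563 genes passed in the first contrast and 7 in the second. Both numbers are far from the 200 simulated, so these rates need not hold for the data.

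The members and lists were chosen with earlier results of these data known, so no list was tested as a set. Values on each array are given for the 4 members of each role with the largest IL-4 difference among those that passed without overlap, for all tested sensors and for Psmb8, and of other lists up to 4 genes are named. Replicate numbers stand only in the authors' processed table, and no label says what they mark. Same-numbered samples' deviations from their group means correlated above 0.1 in all 3 pairs between LMP7ko_M2 and LMP7ko_M0 (0.18 to 0.363). They also did so between LMP7ko_M0 and WT_M0 (0.116 to 0.383). These comparisons are therefore called paired, but the main p-values come from the model without a block and ignore the pairing. A replicate block was fitted only as an alternative, on the authors' processed values. The deviations did not correlate above 0.1 in all 3 pairs between WT_M2 and WT_M0 (-0.00998 to 0.151) or LMP7ko_M2 and WT_M2 (-0.0175 to 0.122). They did between LMP7ko_M2 and WT_M0 (0.138 to 0.396), which differ in both genotype and treatment and were not compared. Promoter windows are RefSeq's (GRCm38.p6). Plots used matplotlib 3.10.9 in Python 3.11.15. Alternatives covered background offset, normalization, filters, probes, arrays left out and the authors' values.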

Additional observations from a re-analysis of the deposited data

How the results depend on the processing

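Scaling arrays by their median in place of quantile normalization lowered the members past the threshold to 15 in knockout and 15 in wild-type cells, against 23 and 23, while all genes past it fell to 750 and 469, against 1422 and 1053. Under every other alternative, the members past the threshold numbered within 1.5 times the reported count. Leaving out 1 array gave 19 to 23 in knockout and 16 to 26 in wild-type cells. No genotype difference and no difference of responses of a member passed under any alternative run, and no called difference changed sign. Called in every alternative in which they were tested were 15 members in knockout and 13 in wild-type cells, 12 of them shared (Creld2, Ddost, Dnajb9, Herpud1, Hspa5, Hyou1, Manf, P4hb, Pdia4, Pdia6, Sec61a1 and Ssr2). Of these 12, Creld2, Hyou1, Pdia4, Pdia6 and Ssr2 were not tested under the filter that asks for a detection p under 0.01 on all 12 arrays, nor was Sec61b, called in knockout cells. Some members passed only under an alternative, namely Syvn1, Sel1l, Derl2 and Rpn2 in knockout cells and Pdia3, Syvn1, Derl2, Ddit3, Ssr3 and Rpn2 in wild-type cells. With the replicate block, on the authors' processed values, 22 members passed in knockout and 27 in wild-type cells, against 23 and 28 without it on the same values. In the paired comparisons (knockout IL-4 response and M0 genotypes) it changed no member's call other than that of Ern1. In wild-type cells, whose numbers did not pair M2 with M0, Ern1 also did not pass with it (-0.29, limma, adjusted p = 0.0528). Of 12 samples, 10 correlated best with their own number. A slide block was not run, since no header gives a slide, and fitting only the groups compared is not possible for the difference of responses. Probes near background, among them Ern1 and Pdia6, limit what can be said of their size.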
